A study of Mus musculus with 6 samples.

Results

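The genes described here are 10 members of the Notch pathway, found by symbol among the 54446 genes of the deposited count table. They are the receptors Notch1 and Notch2, the ligands Dll1, Dll4, Jag1 and Jag2, the receptor-modifying enzyme gene Lfng, the DNA-binding effector gene Rbpj, the target Hes1, and Gfi1, which codes for a transcriptional repressor of the secretory lineage. Each symbol matched 1 gene, and all 10 passed the filter on low counts that left 15068 genes for testing.

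The series measured RNA in intestinal epithelial cells of mice aged 3 to 4 months, with 3 control libraries (Prkci flox/flox) and 3 knockout libraries (Prkci flox/flox with Villin-CRE), each from a different mouse. Every mouse in both groups carried the floxed alleles, and the genotypes were housed together. The cells were washed out of jejunum-ileum segments 10 cm long with EDTA and dithiothreitol. The floxed gene, Prkci, codes for an atypical protein kinase C (iota/lambda) of the PAR complex at the apical cell border, and Villin-driven Cre is expressed in the epithelium, so Notch transcripts of vessels, stroma or leukocytes come from cells that this Cre does not target.

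In Notch signalling, a ligand on a neighbouring cell binds the receptor, metalloproteases and then gamma-secretase cut it, and the freed intracellular part joins RBPJ on DNA to switch on targets such as Hes1. In the intestinal crypt, HES1 represses Atoh1, so that cells with active Notch become absorptive, while cells with little Notch activity express Dll1 and Dll4, turn on Atoh1 and enter the secretory lineages. GFI1 acts downstream of ATOH1 and favours goblet and Paneth over enteroendocrine fate. Numb, an endocytic inhibitor of Notch, is a known substrate of atypical protein kinase C in other tissues.

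Total counts ran from 22453798 to 23008047 in the controls and from 18972906 to 26687856 in the knockouts. Levels are given as CPM, that is, counts per 1e6 counts of the library after TMM scaling of its total. Prkci stood at 44.6, 46.9 and 44.0 CPM in control replicates 1 to 3 and at 21.5, 14.6 and 21.4 CPM in knockout replicates 1 to 3, so the groups did not overlap (log2 fold change −1.24, SE 0.17, edgeR adjusted p = 0.0719). Counts cover the whole gene, and the labels do not say which exons are floxed, so a residual level does not measure intact transcript. On the first principal component, which held 54.7% of the variance, knockout replicate 1 lay at −21.9, near the controls (−33.3 to −30.4). Knockout replicates 2 and 3 lay at 68.0 and 50.9. On the second component, with 20.2% of the variance, knockout replicate 1 lay apart from both groups, at −52.6. There the controls lay at 5.48 to 29.5, and knockout replicates 2 and 3 at 11.2 and −6.77. By Xist and Ddx3y counts, control replicate 3 and knockout replicates 2 and 3 came from females, and this contradicts the sex that the submitters recorded for 3 libraries (control replicate 2, control replicate 3, knockout replicate 3). Epithelial identity was clear in each library, with summed levels of 8 epithelial genes (Vil1 the most abundant) of 10724 to 11200 CPM in the controls and 11748 to 13520 CPM in the knockouts. Results that rest on knockout replicate 1 are given with and without it.

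Among the 10 genes, Notch2 and Dll4 had the largest fold changes, and both stood highest in knockout replicates 2 and 3. No member passed the edgeR threshold (adjusted p under 0.05) in the 6 libraries, where 0.0597% of all genes did (0.0531% higher and 0.00664% lower). At an unadjusted p under 0.05 there were 2 of 10 members, Notch2 and Dll4, both higher, against 16.4% of all genes (9.32% higher and 7.09% lower). DESeq2 put 1 member, Notch2, past its threshold, higher in the knockouts, against 5.55% of genes (3.60% higher and 1.95% lower). By limma-voom 0 members passed, against 0.0332% of genes (0.0265% higher and 0.00664% lower). Without knockout replicate 1, edgeR called 3 members, Notch1, Notch2 and Dll4, all higher, against 17.5% of genes in that fit (10.0% higher and 7.44% lower). In a list of 10 genes, neither 2 nor 3 members is far from these backgrounds, and the counts do not set the members apart. The median log2 fold change was 0.29 over the members and 0.01 over all genes tested, and 9 of 10 members had a positive value, against 50.7% of all genes.

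**Figure D1:**
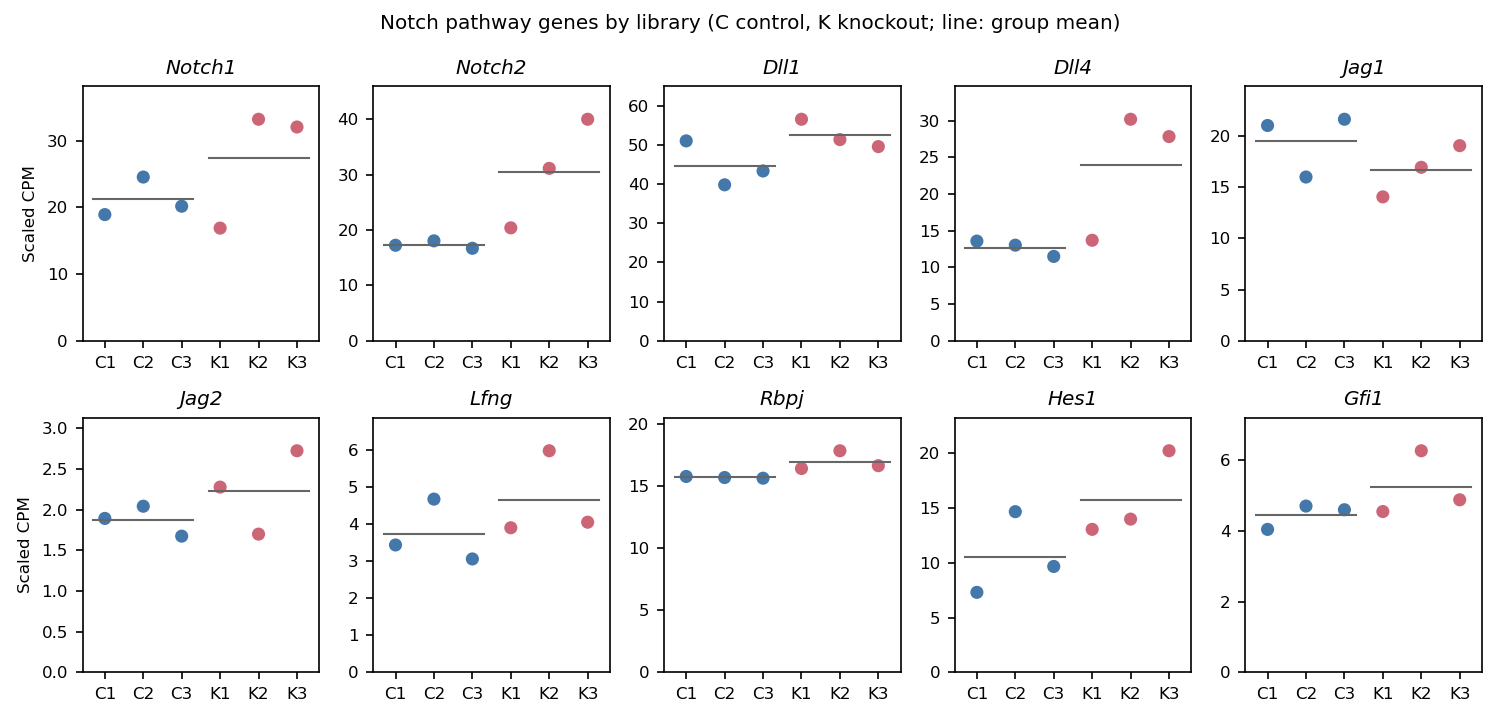
Scaled CPM of the 10 genes (vertical axes, each from 0) in control libraries C1 to C3 and knockout libraries K1 to K3, with the line at the group mean. Notch2 and Dll4 stood at or below 18.0 CPM in the controls and at 27.8 CPM or more in K2 and K3, with K1 close to the controls, while Rbpj stayed between 15.6 and 17.8 CPM in all libraries.

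The receptor Notch2 (ENSMUSG00000027878.11, mm10 chromosome 3, 98013527 to 98150361) stood at 17.2, 18.0 and 16.7 CPM in control replicates 1 to 3 and at 20.4, 31.1 and 40.0 CPM in knockout replicates 1 to 3. Every knockout lay above every control, and knockout replicate 1 was the nearest to them. Its mean went from 17.3 ± 0.674 to 30.5 ± 9.80 CPM (SD, n = 3 each), a ratio of 1.76. The log2 fold change was 0.82 (SE 0.23, 95% interval 0.26 to 1.37, unadjusted p = 0.00987, edgeR adjusted p = 0.182), and the DESeq2 adjusted p was 0.0359. Without knockout replicate 1 it was 1.04 (SE 0.14, edgeR adjusted p = 0.00396).

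Notch1, the receptor best known for crypt maintenance together with Notch2, behaved differently in knockout replicate 1. Notch1 (ENSMUSG00000026923.15, chromosome 2, 26457903 to 26516663) stood at 18.9, 24.5 and 20.2 CPM in the controls and at 16.9, 33.2 and 32.0 CPM in knockout replicates 1 to 3. Knockout replicate 1 was thus the lowest of the 6 libraries, and the other 2 knockouts were the highest. The log2 fold change was 0.37 (SE 0.26, 95% interval −0.25 to 0.99, edgeR adjusted p = 0.504), and without knockout replicate 1 it was 0.62 (SE 0.14, edgeR adjusted p = 0.0240). It was 0.23 without knockout replicate 2.

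Of the ligands, Dll4 (ENSMUSG00000027314.6, chromosome 2, 119325784 to 119335962) had the largest difference. Dll4 stood at 13.6, 13.04 and 11.5 CPM in the controls and at 13.7, 30.2 and 27.8 CPM in knockout replicates 1 to 3. The groups did not overlap, but only narrowly, since knockout replicate 1 lay beside control replicate 1. Group means were 12.7 ± 1.08 and 23.9 ± 8.91 CPM (SD, n = 3 each), a ratio of 1.88. The log2 fold change was 0.91 (SE 0.29, 95% interval 0.24 to 1.59, unadjusted p = 0.0150, edgeR adjusted p = 0.203), the DESeq2 adjusted p was 0.0526, and without knockout replicate 1 the value was 1.19 (SE 0.13, edgeR adjusted p = 0.00206).

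Dll1, the other Delta-like ligand of the crypt, overlapped between the genotypes. Dll1 (ENSMUSG00000014773.13, chromosome 17, 15367354 to 15376872) stood at 51.0, 39.8 and 43.3 CPM in the controls and at 56.5, 51.3 and 49.5 CPM in knockout replicates 1 to 3. Here knockout replicate 1 was the highest library, unlike for Notch1, Notch2 and Dll4. The log2 fold change was 0.23 (SE 0.12, 95% interval −0.06 to 0.52, edgeR adjusted p = 0.396), with 0.35 without control replicate 1 and 0.15 without control replicate 2. The log2 fold change of Dll4, 0.91, lay outside the interval for Dll1. The intervals of the 2 genes overlapped, however, since that of Dll4 ran from 0.24 to 1.59.

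Both Jagged ligands overlapped between the genotypes. Jag1 (ENSMUSG00000027276.7, chromosome 2, 137081456 to 137116644) was the sole member with a negative log2 fold change, at 21.03, 16.0 and 21.6 CPM in the controls and 14.1, 16.9 and 19.1 CPM in knockout replicates 1 to 3 (−0.23, SE 0.18, 95% interval −0.64 to 0.19, edgeR adjusted p = 0.540). Its lowest library was knockout replicate 1, while knockout replicates 2 and 3 lay within the control range. For Jag1 the log2 fold change was −0.12 without knockout replicate 1 and −0.36 without control replicate 2. Jag2 (ENSMUSG00000002799.6, chromosome 12, 112907819 to 112929776) was near the lower limit of measurement, with 132 counts over the controls and 152 over the knockouts. Its level was 1.89, 2.04 and 1.67 CPM in the controls and 2.28, 1.70 and 2.72 CPM in the knockouts, with an interval of −0.36 to 0.87 around a log2 fold change of 0.26. Single libraries decided much of that value, which was 0.10 without knockout replicate 3 and 0.44 without knockout replicate 2.

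Lfng encodes Lunatic fringe, a glycosyltransferase that adds sugars to Notch receptors and shifts their response between Delta-like and Jagged ligands. Lfng (ENSMUSG00000029570.5, chromosome 5, 140607320 to 140615545) stood at 3.43, 4.67 and 3.06 CPM in the controls and at 3.90, 5.97 and 4.04 CPM in knockout replicates 1 to 3. The 2 groups overlapped, and the log2 fold change of 0.32 had a 95% interval of −0.30 to 0.94 (SE 0.26, edgeR adjusted p = 0.568). It was 0.11 without knockout replicate 2, 0.19 without control replicate 3 and 0.51 without control replicate 2.

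Rbpj (ENSMUSG00000039191.12, chromosome 5, 53466152 to 53657362), the common DNA-binding partner of all Notch receptors, varied least. Its levels were 15.8, 15.7 and 15.6 CPM in the controls and 16.4, 17.8 and 16.6 CPM in knockout replicates 1 to 3. By TMM scaling the knockouts lay above the controls without overlap, while per total count they overlapped and the log2 fold change was −0.0010. The log2 fold change with TMM scaling was 0.11 (SE 0.11, 95% interval −0.15 to 0.38, edgeR adjusted p = 0.643). Counted over the members, 3 did not overlap between the groups (Notch2, Dll4 and Rbpj, all higher), against 21.8% of all genes in either direction and 10.0% higher. Per total count 2 of them did not overlap.

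Hes1 (ENSMUSG00000022528.8, chromosome 16, 30064384 to 30067796), the target that represses Atoh1, had the largest relative SD among the controls of the 10. Its level was 7.30, 14.7 and 9.67 CPM in control replicates 1 to 3 and 13.1, 14.0 and 20.2 CPM in knockout replicates 1 to 3. Control replicate 2 lay above knockout replicates 1 and 2, so the groups overlapped. The log2 fold change was 0.58 (SE 0.29, 95% interval −0.10 to 1.26, edgeR adjusted p = 0.369), and it was 0.89 without control replicate 2, and lower, at 0.39 and 0.38, when control replicate 1 or knockout replicate 3 was left out. The 95% interval reached above a log2 fold change of 1, so these libraries do not show that Hes1 was alike in the genotypes.

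Gfi1 (ENSMUSG00000029275.18, chromosome 5, 107716657 to 107726036) stood at 4.05, 4.71 and 4.60 CPM in the controls and at 4.55, 6.27 and 4.89 CPM in knockout replicates 1 to 3. Knockout replicate 1 lay inside the control range, and the log2 fold change was 0.23 (SE 0.20, 95% interval −0.23 to 0.70, edgeR adjusted p = 0.574). Without knockout replicate 2 it was 0.10.

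**Figure D2:**
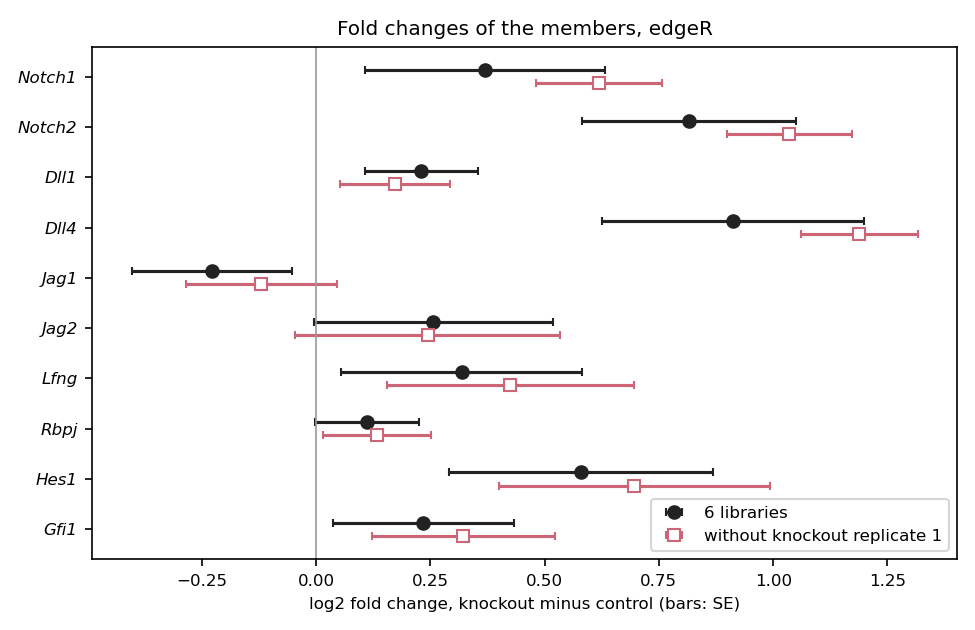
Log2 fold change of each member (horizontal axis, knockout minus control) with its SE, by edgeR over 6 libraries (filled circles) and without knockout replicate 1 (open squares). Leaving out that library moved Notch2 from 0.82 to 1.04, Dll4 from 0.91 to 1.19 and Notch1 from 0.37 to 0.62, with smaller SEs.

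Knockout replicates 2 and 3 were female by Xist, as was control replicate 3. Control replicate 3 stood at 11.5 CPM for Dll4, against 13.6 and 13.04 CPM in control replicates 1 and 2. For Notch2 it stood at 16.7 CPM, against 17.2 and 18.0 CPM. Its Notch1, at 20.2 CPM, lay between the other controls (18.9 and 24.5 CPM). These are values of 1 library. With sex by these transcripts as a covariate, the log2 fold change was 0.65 for Notch2 (SE 0.23, edgeR adjusted p = 0.318), 0.69 for Dll4 (SE 0.30, edgeR adjusted p = 0.389) and 0.17 for Notch1 (SE 0.27, edgeR adjusted p = 0.830). Without knockout replicate 1, both knockouts left were female, and genotype and sex were told apart only by control replicate 3.

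Levels of different genes were compared per kb of merged exon, as CPM divided by exon length. In the controls Dll1 was the highest member at 10.6 ± 1.36 CPM per kb (SD, n = 3), and its range did not overlap that of Hes1, which was next at 5.18 ± 1.85. Hes1, Jag1 (3.36 ± 0.531) and Dll4 (3.30 ± 0.280) followed with ranges that overlapped from each to the next. Notch2 (1.61 ± 0.0626), Notch1 (1.49 ± 0.207), Lfng (1.48 ± 0.336) and Gfi1 (1.40 ± 0.111) formed a further run of overlapping neighbours. Rbpj stood at 1.23 ± 0.00546 and Jag2 at 0.268 ± 0.0265 CPM per kb. In the knockouts Dll4 came after Dll1 and Hes1 at 6.21 ± 2.31 CPM per kb, above Jag1 at 2.86 ± 0.431, and the ranges of these ligands did not overlap there. All other members kept their order. Merged exon length counts every annotated exon once, so a gene with long alternative exons, such as Rbpj with 12750 exon bases, has a lower value than its main transcript would give.

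**Figure D3:**
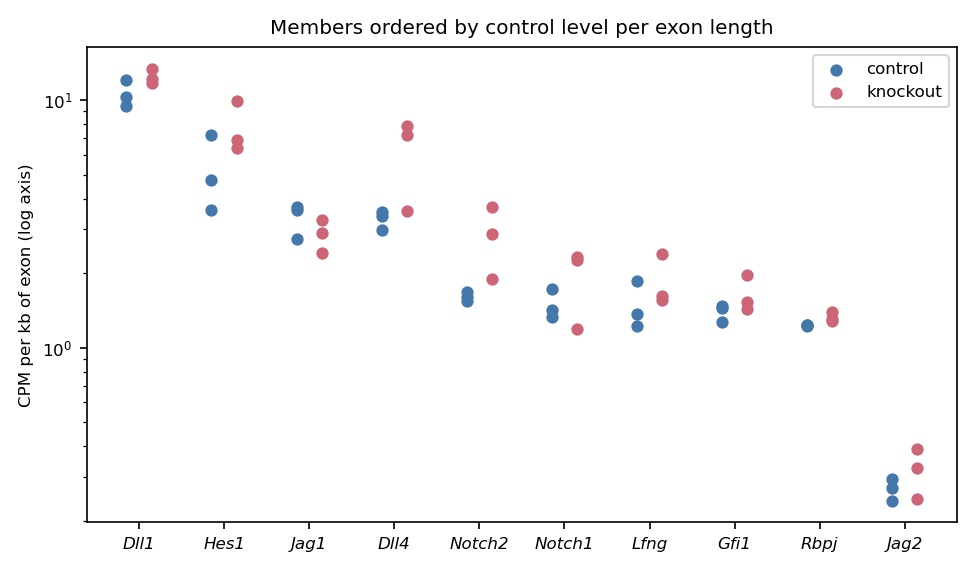
Level of each member as CPM per kb of merged exon (log axis) in the 3 control and 3 knockout libraries, ordered by control mean. Dll1 was highest in both groups (10.6 and 12.4 CPM per kb) and Jag2 lowest (0.268 and 0.321), and Dll4 passed Jag1 in the knockouts.

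Promoter windows from RefSeq (build GRCm38.p6, the 250 bases before a transcription start) were available for 9 of 10 members, in 12 windows. The 3 members called without knockout replicate 1 are printed first, and Lfng is printed because it alone among the 9 held the longer RBPJ motif. Hes1, with a larger log2 fold change (0.58) than Notch1 (0.37), was the member without a window. Sequences run 5′ to 3′ along the gene, in lower case, with capitals for every match to the motifs searched. These were the RBPJ core TGGGAA, the longer RBPJ motif GTGGGAA, which contains the core, the N box CACNAG and the class C site CACGCG, the last 2 being sequences that HES repressors bind. Both strands were searched, so a capital run can be the reverse complement of the motif.
Notch2, chr3:98013288-98013537, plus strand: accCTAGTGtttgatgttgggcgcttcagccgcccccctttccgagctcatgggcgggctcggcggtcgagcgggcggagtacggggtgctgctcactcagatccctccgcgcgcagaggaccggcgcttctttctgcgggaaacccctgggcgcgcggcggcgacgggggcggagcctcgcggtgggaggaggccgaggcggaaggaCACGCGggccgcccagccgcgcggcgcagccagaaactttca
Dll4, chr2:119325534-119325783, plus strand: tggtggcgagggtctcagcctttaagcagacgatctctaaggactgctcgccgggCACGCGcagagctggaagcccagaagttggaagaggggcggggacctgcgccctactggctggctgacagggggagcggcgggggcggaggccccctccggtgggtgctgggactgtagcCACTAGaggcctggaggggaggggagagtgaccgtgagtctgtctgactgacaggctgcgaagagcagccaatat
Notch1, chr2:26503823-26504072, minus strand: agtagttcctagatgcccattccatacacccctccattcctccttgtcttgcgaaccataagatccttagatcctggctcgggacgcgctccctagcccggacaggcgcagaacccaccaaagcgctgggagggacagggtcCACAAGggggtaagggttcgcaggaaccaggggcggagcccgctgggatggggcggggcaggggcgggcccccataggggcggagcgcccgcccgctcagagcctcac
Lfng, chr5:140607091-140607340, plus strand: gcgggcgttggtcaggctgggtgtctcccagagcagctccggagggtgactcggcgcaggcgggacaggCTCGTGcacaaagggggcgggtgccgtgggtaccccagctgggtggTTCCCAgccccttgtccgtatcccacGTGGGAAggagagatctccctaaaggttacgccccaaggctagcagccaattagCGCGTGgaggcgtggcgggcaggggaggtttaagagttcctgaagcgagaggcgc

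The Notch2 and Dll4 windows each held 1 N box and 1 class C site and no RBPJ core. In Notch2 these began 247 and 42 bases before the start, and in Dll4 they began 75 and 195 bases before it. The Notch1 window held 1 N box, beginning 108 bases before the start. Lfng held the longer RBPJ motif beginning 109 bases before the start, a further core beginning 135 bases before it, 1 N box and 1 class C site. The core was found in 2 of the 9 members (Lfng and Rbpj), in 21.6% of 32851 windows and in 6510 of 27025 genes. The longer motif was found in 1 member, 5.42% of windows and 1669 genes. An N box was found in 4 members, 36.7% of windows and 10830 genes. A class C site was found in 5 members, 7.62% of windows and 2339 genes. Members are counted by gene, as are the gene numbers, while the percentages are per window. None is matched for base composition. A match is a run of letters only, and the windows hold no enhancers.

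The wider pathway was described from a list of 66 other genes, of which 56 passed the filter. By edgeR 0 of them passed the threshold over all genes, as by DESeq2 and limma-voom, and 4 had an unadjusted p under 0.05 (3 higher, 1 lower), a smaller share than the 16.4% of all genes. The median log2 fold change was −0.01, and 28 of 56 were positive. Without knockout replicate 1, edgeR called 7 of the 56, 6 higher and 1 lower, against 17.5% of all genes in that fit (10.0% higher and 7.44% lower), so the share of the list was below that of all genes.

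The receptor gene Notch4, which is best known in vessels, stood at 2.24, 2.79 and 3.43 CPM in the controls and at 3.34, 5.75 and 5.25 CPM in knockout replicates 1 to 3 (log2 fold change 0.76, SE 0.28, edgeR adjusted p = 0.251). It followed Notch2 in being highest in knockout replicates 2 and 3. Notch3, with 2, 1 and 1 counts in the controls and 8, 18 and 5 in the knockouts, did not pass the filter. Every knockout lay above every control for Notch3, at counts too low for a test. Kat2a, an acetyltransferase of the coactivator complex, stood at 4.88, 6.46 and 4.86 CPM in the controls and at 5.67, 11.9 and 9.57 CPM in the knockouts, with knockout replicate 1 inside the control range (log2 fold change 0.75, SE 0.29, edgeR adjusted p = 0.269). Dtx1, a Deltex ubiquitin ligase that acts on Notch receptors, had 6.79 ± 1.47 CPM in the controls and 11.1 ± 2.94 CPM in the knockouts (SD, n = 3 each, edgeR adjusted p = 0.247), and Maml3, a Mastermind coactivator, had 11.3 ± 0.282 and 7.46 ± 2.21 CPM (edgeR adjusted p = 0.249). For Maml3 each knockout lay below each control.

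Genes that cut the receptor were positive in all 8 tested, from 0.00 to 0.37 on the log2 scale, with none at an unadjusted p under 0.05. Adam10, the metalloprotease that makes the first ligand-dependent cut, was the most abundant at 258, 214 and 221 CPM in the controls and 204, 346 and 314 CPM in knockout replicates 1 to 3. Without knockout replicate 1, Adam10 passed the threshold (log2 fold change 0.51, SE 0.12, edgeR adjusted p = 0.0254), as did Adam17 (0.43) and the gamma-secretase subunit gene Ncstn (0.59), the last 2 of which are named after their values were seen. These were 3 of 8 genes, all higher, against 17.5% of all genes in that fit (10.0% higher). The corepressor genes, with Ncor1 the most abundant, lay between −0.31 and 0.09 in all 12, and none had an unadjusted p under 0.05. Numb, the endocytic inhibitor named above, stood at 149, 140 and 144 CPM in the controls and at 145, 170 and 166 CPM in the knockouts (log2 fold change 0.15, SE 0.10, edgeR adjusted p = 0.494), and is likewise named for that known link. Mib1, a ubiquitin ligase that ligands need for signalling, stood at 83.5, 90.3 and 85.4 CPM in the controls and at 75.9, 80.2 and 73.3 CPM in the knockouts, without overlap (log2 fold change −0.18, SE 0.09, edgeR adjusted p = 0.385). Of the 56 genes, 5 did not overlap between the groups, 1 higher (Furin, a convertase that cleaves the receptor during its maturation) and 4 lower (Mib1, Maml3, the fringe gene Rfng and the coactivator gene Crebbp), against 21.8% of all genes. Dtx3l, the most abundant turnover gene, stood at 213, 202 and 204 CPM in the controls and at 202, 334 and 269 CPM in the knockouts, so knockout replicates 2 and 3 were the highest libraries here too.

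Of 10 further target genes 5 passed the filter, and none had an unadjusted p under 0.05. Olfm4, a Notch-responsive marker of crypt base stem cells, was the most abundant and varied most in the controls, at 150, 419 and 147 CPM, against 111, 262 and 220 CPM in knockout replicates 1 to 3. The groups overlapped (log2 fold change −0.27, SE 0.48, edgeR adjusted p = 0.804). Hes3 had no counts in any library.

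**Figure D4:**
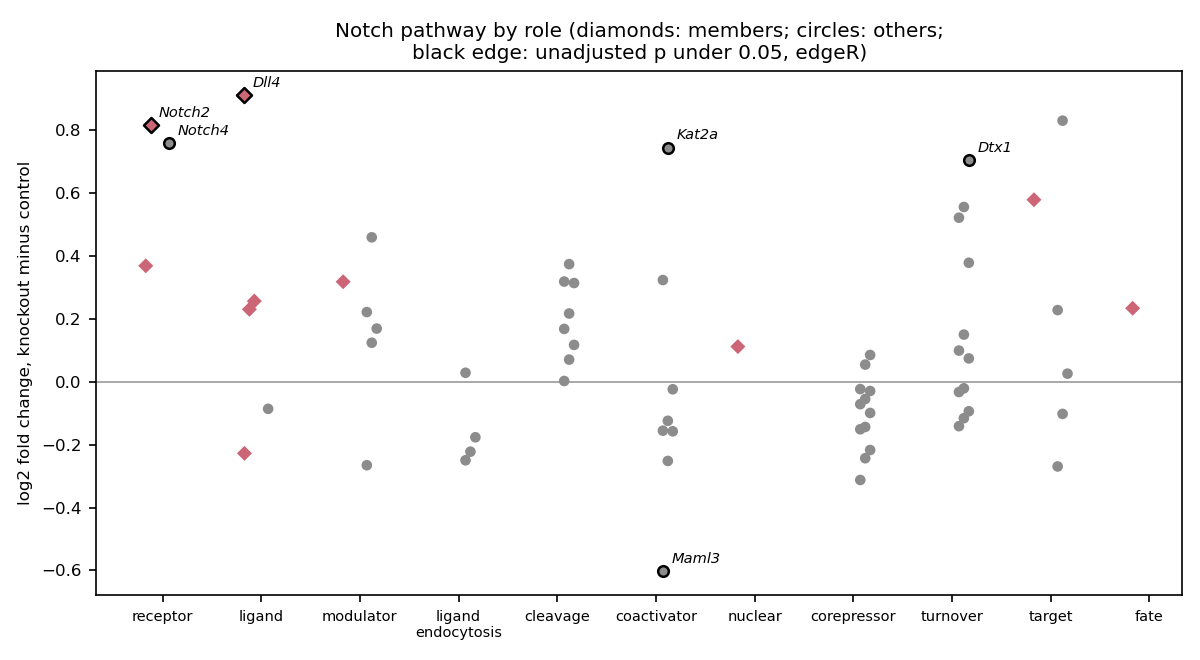
Log2 fold change (vertical axis, knockout minus control, edgeR, 6 libraries) of the tested Notch pathway genes by role, with members as diamonds and the 56 others as circles, and a black edge at an unadjusted p under 0.05. Notch2, Dll4, Notch4, Kat2a and Dtx1 lay above 0.70 with such a p, Maml3 lay at −0.60, and corepressors lay between −0.31 and 0.09.

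Transcription factors of absorptive and secretory fate were described from a list of 26 genes, of which 24 passed the filter. By edgeR 0 passed over all genes, and 2 of 24 had an unadjusted p under 0.05, both lower, against 7.09% of all genes lower and 16.4% in either direction. DESeq2 called 1, lower, against 5.55% of all genes (1.95% lower), and limma-voom called 0. Atoh1, the switch to secretory fate that HES1 represses, stood at 19.5, 24.2 and 23.5 CPM in the controls and at 21.4, 20.3 and 15.7 CPM in knockout replicates 1 to 3, and the groups overlapped (log2 fold change −0.23, SE 0.16, edgeR adjusted p = 0.502). Hnf4g, an enterocyte factor, was lower in each knockout, at 443, 552 and 530 CPM in the controls and 372, 312 and 278 CPM in the knockouts (log2 fold change −0.66, SE 0.16, edgeR adjusted p = 0.135, DESeq2 adjusted p = 0.00448). Sox9, needed for Paneth cells, went from 22.6 ± 6.26 to 14.8 ± 2.04 CPM (SD, n = 3 each, edgeR adjusted p = 0.247). Without knockout replicate 1, 3 of these 24 genes passed the edgeR threshold, all lower, against 7.44% of all genes lower in that fit: Hnf4g, Pou2f3 and Gfi1b, the last named after its values were seen. Pou2f3, the master regulator of tuft cells, stood at 6.48 CPM in knockout replicate 1, at 0.131 and 0.561 CPM in knockout replicates 2 and 3, and at 7.42 to 9.21 CPM in the controls.

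Markers of other cells also differed between libraries. In these bulk samples, more cells of a type and more RNA per cell cannot be told apart. The summed level of 15 endothelial genes, a cell type in which Dll4, Notch1 and Notch4 are well known, was 3.21 to 5.19 CPM in the controls and 17.4, 6.71 and 8.45 CPM in knockout replicates 1 to 3. Of these genes 5 passed the filter and 2 had an unadjusted p under 0.05, both higher (Tek and Tie1, named after their values were seen), against 9.32% of all genes. Tek, an angiopoietin receptor gene, stood at 0.352, 0.375 and 0.544 CPM in the controls and at 1.57, 2.18 and 3.36 CPM in knockout replicates 1 to 3. Tie1, another endothelial receptor gene, stood at 0.220, 0.125 and 0.377 CPM in the controls and at 1.37, 1.52 and 0.961 CPM in the knockouts. Pecam1, the most abundant of the list, stood at 1.58, 1.21 and 1.13 CPM in the controls and at 6.48, 1.74 and 1.68 CPM in the knockouts. For all 3 of these genes each knockout lay above each control, against 10.0% of all genes. Tek and Tie1 were low in the controls, and their higher level in the knockouts took them past the filter. Setting these numbers of genes against the shares of all genes therefore does not test the list. The other 2 of the 5 tested overlapped between the groups. Of the 5, 1 had a negative log2 fold change, and no gene of the list was at 0 in all libraries. The part of endothelial cells in the Notch results was not tested.

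The summed crypt and proliferation genes were highest in the same 2 libraries as Notch1, Notch2 and Dll4, but not every gene of the lists was. The sum of 10 crypt stem cell genes, with Prom1 the most abundant, was 243 to 284 CPM in the controls. In knockout replicates 1 to 3 it was 229, 460 and 462 CPM. That of 10 proliferation genes was 234 to 388 CPM in the controls and 218, 575 and 467 CPM in the knockouts. Of the 10 crypt stem genes, 2 had an unadjusted p under 0.05 and were higher (Cd44 and Prom1), against 9.32% of all genes, and 1 was lower (Lgr5), against 7.09%. Ascl2, Smoc2 and Znrf3, like Lgr5, were highest in control replicate 2, as was Pcna of the proliferation list, and these genes are named after their values were seen. Lgr5, the receptor that defines crypt base stem cells, stood at 2.90, 9.71 and 4.52 CPM in the controls and at 2.23, 2.79 and 1.72 CPM in the knockouts. The part of these genes' cells in the Notch results was not tested.

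Summed T cell and myeloid genes did not overlap between the groups, with all knockouts above (exact permutation p = 0.1, two-sided, the smallest that 3 against 3 allows), and tuft cell genes were lowest in knockout replicates 2 and 3. The T cell sum of 11 genes was 138 to 255 CPM in the controls and 296, 855 and 422 CPM in knockout replicates 1 to 3, and the myeloid sum of 10 genes was 12.3 to 16.2 CPM against 39.3, 30.4 and 28.4 CPM. The smooth muscle sum of 8 genes was 1.5 to 4.44 CPM in the controls and 35.0, 1.74 and 69.5 CPM in the knockouts. Genes of Paneth cells, which present Notch ligands in the crypt, summed to 1685 to 6075 CPM in the controls. In the knockouts they summed to 1050, 1472 and 801 CPM, without overlap. Of these 10 genes 8 had a negative log2 fold change and 2 a positive one. An unadjusted p under 0.05 was found for 5 of them, all lower, against 7.09% of all genes. Enteroendocrine genes, of the secretory lineage as well, summed to 219 to 267 CPM in the controls and to 311, 439 and 348 CPM in the knockouts, without overlap. Of these, 5 of 11 had an unadjusted p under 0.05, all higher, against 9.32% of all genes. Sums of 10 goblet and of 10 enterocyte genes overlapped. The goblet sum was 19743 to 26107 CPM in the controls and 19164, 20874 and 20962 CPM in knockout replicates 1 to 3. The enterocyte sum was 39702 to 47660 CPM against 40401, 62411 and 51600 CPM. The B and plasma cell sum of 8 genes was 33.0 to 132 CPM in the controls and 331, 149 and 327 CPM in the knockouts. The tuft sum of 10 genes was 250 to 309 CPM in the controls and 260, 23.0 and 33.6 CPM in the knockouts. Whether any of these cell types contributed to the Notch transcripts was not tested.

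**Figure D5:**
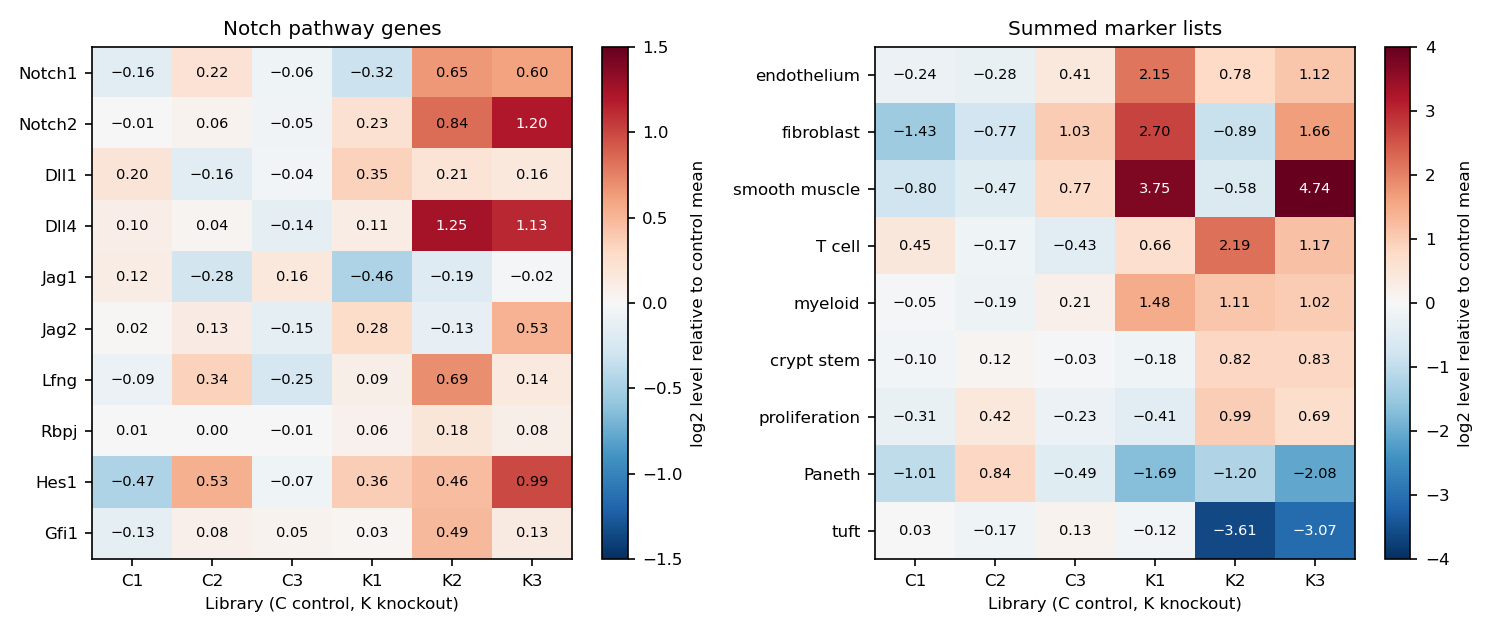
Level of each member (left) and of each summed marker list (right) in the 6 libraries, as log2 relative to the control mean, with separate colour scales. Dll4 was at 0.11, 1.25 and 1.13 in K1 to K3, crypt stem genes at −0.18, 0.82 and 0.83, and endothelial genes at 2.15, 0.78 and 1.12.

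Reads of overlapping genes cannot be told apart here, because the strand setting of the counting is not given in the sources used. On the opposite strand, Dll1 overlaps A930024N18Rik (62 to 92 counts per library, against 955 to 1237 for Dll1) and Dll4 overlaps Gm14207 (37 to 60 counts, against 271 to 695). For Notch1 and Gfi1, genes on the opposite strand had at most 22 and 3 counts. On the same strand, where no strand setting would separate them, Notch2 (392 to 998 counts) overlaps Gm42819 (9 to 38) and Gm42820 (7 to 14).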

How the data were processed

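RNA was sequenced from 3 control and 3 knockout libraries. The file that the authors deposited holds raw read counts per gene. STAR 2.5.0a, bcl2fastq 2.17, FastQC, Trim Galore and build mm10 are named, per the submitters' processing notes; how reads were counted, with which strand setting and annotation, is not given in the sources used here. Of the deposited identifiers, 97.8% matched GENCODE M21 with the same coordinates, from which positions and exon lengths were taken. The labels name both poly-A selection and a kit that removes ribosomal RNA.

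Groups and replicate numbers came from the titles. Genes were tested with edgeR 4.0.16 (R 4.3.3), using TMM scaling, its expression filter (minimum count 10), a two-sided quasi-likelihood test of genotype, and Benjamini-Hochberg adjustment over 15068 genes at 0.05. SEs were taken from the log2 fold change and its F statistic, and intervals cover 95%. Lists were summed as CPM. The members and lists were chosen with earlier results of these data known. Beyond the members, the text names the most abundant gene of a role and those with an unadjusted p under 0.05, and others where stated. The scripts were tested on simulated data.

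Deviations from the group mean had weak positive correlations between same-numbered libraries (0.117, 0.119 and 0.149 across genes). Those of the other pairs ran from −0.143 to 0.00929. Deviations within a group balance out, so these values do not decide whether libraries were paired. A fit with the number as a block was also made, although no label says what a number marks. Replicates differed by more than sampling noise (lowest chi-square per gene 23.8). Alternatives were DESeq2 1.42.0 (size factors and Wald test), limma-voom (limma 3.58.1), library totals, no filter, 1 CPM in 3 libraries, the block, sex by Xist and Ddx3y, and leaving out each library.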

Additional observations from a re-analysis of the deposited data

How the results depend on the processing

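The number of genes called was 9 (8 higher, 1 lower), and it was 16 with library totals, 284 with no filter, 836 with DESeq2, 5 with limma-voom, 0 with the replicate block, and 0 to 2700 when each library was left out. Among the Notch members it was 0, with 1 by DESeq2, 0 with the replicate block and 0 to 3 with a library left out; for the other pathway genes 0 to 7, and for the fate factors 1 by DESeq2 and 0 to 4 (1 of the 4, Pax4, was tested only without knockout replicate 1, where its higher level in the other knockouts took it past the filter). Of the 6 libraries left out in turn, knockout replicate 1 was the one whose absence gave calls in these lists. With a library left out, log2 fold changes ran from 0.23 to 0.62 for Notch1, from 0.59 to 1.04 for Notch2, from 0.73 to 1.19 for Dll4 and from −1.33 to −1.06 for Prkci. Notch2 passed with DESeq2 (0.82), and Prkci with DESeq2 (−1.23) and with no filter (−1.22). Rbpj reversed with library totals (−0.0010), which shifted the median of all genes by −0.11. Over 154 recomputed fold changes of the members and Prkci, 146 kept their direction and side of the threshold. None of these genes passed in the main fit, so the same side always meant not called. The block gave 0 calls over all genes, so its lack of calls says nothing particular about the members. The causes were not tested. Depth limited Jag2 most, with 39 to 68 counts per library.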

Other observations

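Ratios of counts between members within a library do not depend on library scaling. They were chosen after their values were seen. Dll4 had 0.267, 0.328 and 0.266 counts per count of Dll1 in the 3 controls, in replicate order, and 0.243, 0.588 and 0.562 in the 3 knockouts. The ligand balance in knockout replicate 1 was thus the lowest of the 6 libraries, and in the other knockouts it was above every control. Notch2 had 0.912, 0.735 and 0.828 counts per count of Notch1 in the controls and 1.21, 0.937 and 1.25 in the knockouts. This ratio did not overlap between the genotypes, but narrowly, with 0.912 in control replicate 1 and 0.937 in knockout replicate 2. Jag1 had 0.412, 0.402 and 0.500 counts per count of Dll1 in the controls and 0.249, 0.330 and 0.385 in the knockouts, also without overlap. By an exact permutation test of log ratios, p was 0.4 for Dll4 per Dll1. It was 0.1, the smallest possible, for Notch2 per Notch1 and for Jag1 per Dll1. Ratios to Rbpj were also computed, and they overlapped for Dll4 but not for Notch2. The share of all gene pairs that do not overlap was not computed.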
